A study of Mus musculus with 8 samples.

Results

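The mammalian heat shock and chaperone genes Hspa1a, Hspa1b, Hspb1, Hsp90aa1, Hsp90ab1, Dnajb1, Hspa8, Hspa5 and Hsph1 were followed through single-cell transcriptomes of the mouse brain cortical plate in 2 laminin knockout experiments. They are 9 of the 31053 genes in the deposited count tables and were taken by gene symbol, with all 9 found in every library. The first experiment had 2 WT libraries as controls for Lama4-/- mice and a Lama4-/- group whose 2 deposited samples hold identical counts and were counted as 1 library. The second had 2 WT libraries as controls for Tek-Cre:Lama5-/- mice and 2 Tek-Cre:Lama5-/- libraries. Lama4 and Lama5 encode the alpha chains that distinguish the laminins of the vascular basement membrane. Lama4-/- mice lack Lama4 in every cell, whereas Tek-Cre deletes Lama5 where the Tek promoter has been active, which covers endothelial cells and, as is known for this driver, much of the blood lineage. All mice were 8 weeks old and were perfused with ice-cold buffer, and 3 brains were pooled in each group, so that the libraries of a group are not known to be separate animals. Every brain was digested for 60 min at 37 °C with papain, DNase and Liberase, a step that all groups share. P-values below therefore measure only the spread between libraries, which may be technical.

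Cells exposed to heat, proteotoxic agents or other stress switch on HSF1, a transcription factor that binds heat shock elements in the promoters of cytosolic chaperone genes. The Hsp70 proteins bind unfolded stretches of proteins in a cycle of ATP use that J-domain proteins start and nucleotide exchange factors end, and Hsp90 proteins finish the folding of kinases and receptors. Unfolded protein in the endoplasmic reticulum is sensed separately and induces Hspa5 through elements that ATF6 and XBP1 bind. Warm enzymatic digestion of tissue is itself known to induce heat shock and immediate early genes in brain cells.

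The genes lie on 6 mouse chromosomes (build GRCm38, GENCODE vM21 annotation; all are annotated as protein coding). Hspa1a (chromosome 17, 34969190 to 34972156, minus strand) and Hspa1b (chromosome 17, 34956436 to 34959238, minus strand) stand 9951 bases apart and encode near-identical inducible Hsp70 proteins. Hsp90ab1 is on the same chromosome (chromosome 17, 45567775 to 45573271, minus strand). Hspb1 (chromosome 5, 135887919 to 135889563, plus strand) and Hsph1 (chromosome 5, 149614287 to 149636376, minus strand) share another. The remaining genes are Hsp90aa1 (chromosome 12, 110690605 to 110702728, minus strand), Dnajb1 (chromosome 8, 83608193 to 83612653, plus strand), Hspa8 (chromosome 9, 40800984 to 40810087, plus strand) and Hspa5 (chromosome 2, 34771970 to 34777547, plus strand). Hspa1a and Hspa1b have 1 annotated transcript each, of 2967 and 2803 bases. Of the 50-base windows of the Hspa1a transcript, 58.8% also occur in Hspa1b, and 62.3% of those of Hspa1b occur in Hspa1a, but none of the windows within the last 500 bases, where a 3' library places most of its reads, is shared. How the authors' counting treated reads that match both genes is not given in the sources used here, so the split between the pair is uncertain.

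The bases upstream of Hspa1a and Hspa1b are shown because this pair moved in the same direction in most comparisons below, though not always by the same amount. Those of Hspb1 are shown because it stood highest in the vessel wall. The windows are the 250 bases before each RefSeq start (build GRCm38.p6), read 5' to 3' on the gene's strand, at chr17:34972157-34972406 for Hspa1a (minus strand), chr17:34959239-34959488 for Hspa1b (minus strand) and chr5:135887669-135887918 for Hspb1 (plus strand). Capitals mark matches, on either strand, to a paired heat shock unit (GAANNTTC or TTCNNGAA) and to a CCAAT box (CCAAT or ATTGG), which do not overlap in these windows.
Hspa1a: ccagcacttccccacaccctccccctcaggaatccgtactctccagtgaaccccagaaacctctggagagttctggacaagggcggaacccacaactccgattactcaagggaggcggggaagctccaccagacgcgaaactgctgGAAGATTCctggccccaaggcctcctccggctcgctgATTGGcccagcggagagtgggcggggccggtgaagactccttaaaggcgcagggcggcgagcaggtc
Hspa1b: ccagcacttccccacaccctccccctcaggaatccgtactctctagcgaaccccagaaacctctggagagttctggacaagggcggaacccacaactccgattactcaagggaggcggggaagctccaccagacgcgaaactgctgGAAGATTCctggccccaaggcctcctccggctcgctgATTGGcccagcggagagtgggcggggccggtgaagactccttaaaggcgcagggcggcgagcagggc
Hspb1: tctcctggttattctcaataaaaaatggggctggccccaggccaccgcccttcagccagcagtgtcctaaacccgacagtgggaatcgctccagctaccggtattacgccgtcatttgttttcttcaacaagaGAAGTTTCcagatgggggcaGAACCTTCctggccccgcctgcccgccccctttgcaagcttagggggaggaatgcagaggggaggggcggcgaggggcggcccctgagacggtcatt

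The Hspa1a and Hspa1b windows were identical at 98.8% of positions, with a longest shared run of 201 bases, and differed by C44T, T47C and T249G (Hspa1a base first, counted from 1 at the window's 5' end). Both held 1 paired unit, GAAGATTC, from 104 to 97 bases before the start, and 1 CCAAT box from 67 to 63 bases before it. Hspb1 held 2 paired units, GAAGTTTC from 117 to 110 and GAACCTTC from 97 to 90 bases before its start, and no CCAAT box. Windows were found for 6 of the 9 genes. The Hsph1 windows held the paired unit TTCTCGAA, and those of Dnajb1 and Hspa5 held none. Of all 32536 RefSeq windows of this length, 12.9% held at least 1 paired unit and 33.8% a CCAAT box. The window of Hspa5 stood out by an endoplasmic reticulum stress element (CCAAT and CCACG set 9 bases apart, so that it overlaps a CCAAT box), 65 to 47 bases before the start, and 4 CCAAT boxes. Its sequence was:
Hspa5 element: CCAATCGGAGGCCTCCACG
That element was present in 0.114% of all windows. A match describes these letters and shows neither binding nor its absence.

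The 7 libraries held 35479306 to 48314458 UMIs (molecule counts), and 47239 of 56961 barcodes passed filters, with medians of 2913 to 6582 UMIs per cell. Pairs of libraries shared between 5 and 21 cell barcodes. Of 34 clusters, those whose markers allowed a name were joined into classes. Named classes below 50 cells in any library, such as oligodendrocyte-like cells (46 in the Lama4 knockout library), were not compared. The 6 classes compared included endothelial-like (1889 to 4726 cells per library), microglia-like (460 to 1413) and smooth muscle-like cells (252 to 455). The others were astrocyte-like (229 to 334), pericyte-like (162 to 295) and perivascular macrophage-like cells (51 to 134). Every marker of a class's own list was detected in each of its libraries, but perivascular macrophage-like cells also carried microglial markers, at a summed 7561 to 12320 CPM beside 8025 to 12870 CPM for their own. In endothelial-like cells Lama4 read 48.3 and 45.4 CPM in its WT libraries and 0.0770 CPM (1 count) in the Lama4 knockout library. Lama5 read 38.0 and 38.5 CPM in WT and 19.9 and 21.1 CPM in Tek-Cre:Lama5-/- libraries, which a 3' tag outside a deleted part may still count. The experiments stood apart: endothelial-like cells of the Lama4 experiment fell mostly in clusters 1 and 14 and those of the Lama5 experiment in clusters 0, 2, 5, 8 and 9, and microglia-like cells in cluster 3 or 6. Gm42418, a non-coding RNA that moves with the groups, took 0.739% to 0.757% of endothelial-like UMIs in the Lama4 experiment, 3.60% to 3.71% in WT and 6.64% to 7.35% in the knockout of the Lama5 experiment, and its part in the results was not tested.

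Levels below are counts per 1000000 UMIs (CPM) of 1 class in 1 library, and means are over the 7 libraries with the SD. Among the 6 classes compared, Hspa1a, the stress-inducible cytosolic Hsp70, reached its highest level in pericyte-like cells of the Lama5 experiment. The pericyte-like values were 1713 and 1788 CPM in WT and 1349 CPM in the knockout of the Lama4 experiment, and 7806 and 8088 CPM in WT and 6525 and 6839 CPM in the knockout of the Lama5 experiment. Outside these classes, unnamed cluster 13 read 12720 and 11300 CPM in WT and 11290 CPM in the knockout of the Lama4 experiment. In the Lama5 experiment that cluster read 302 and 666 CPM in WT and 286 and 196 CPM in the knockout. Microglia-like cells showed the opposite order of experiments, with 6603 and 6732 CPM in WT and 5919 CPM in the knockout of the Lama4 experiment, and 457 and 378 CPM in WT and 235 and 203 CPM in the knockout of the Lama5 experiment. Hspa1a in pericyte-like cells was thus high in all 4 libraries of the Lama5 experiment and low in the 3 of the Lama4 experiment, and in microglia-like cells the reverse, without overlap in either class. Endothelial-like cells read 2554 and 2620 CPM in WT and 1742 CPM in the knockout of the Lama4 experiment, and 869.8 and 875 CPM in WT and 703 and 704 CPM in the knockout of the Lama5 experiment. Astrocyte-like cells had the lowest levels in each library, with 261 and 188 CPM in WT and 146 CPM in the knockout of the Lama4 experiment, and 64.5 and 46.6 CPM in WT and 111 and 106 CPM in the knockout of the Lama5 experiment. Perivascular macrophage-like cells averaged 3713 ± 2445 CPM and smooth muscle-like cells 1803 ± 567 CPM (SD, n = 7). Hspa1b averaged from 3175 ± 1984 CPM in pericyte-like to 86.7 ± 52.9 CPM in astrocyte-like cells (SD, n = 7). These means span experiments with different orders: for Hspa1b, pericyte-like cells ranked 5 of 6 in the Lama4 experiment, at 1082 against 4966 CPM in microglia-like cells, and 1 of 6 in the Lama5 experiment, at 4744 against 192 CPM. The UMIs of Hspa1a per UMI of Hspa1b in endothelial-like cells were 1.42 to 1.47 in WT and 1.25 in the knockout of the Lama4 experiment, and 1.70 to 1.75 in WT and 2.12 to 2.16 in the knockout of the Lama5 experiment.

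Hspb1, a small heat shock protein that holds unfolding proteins and acts on actin filaments, was a gene of the vessel wall. It averaged 2476 ± 728 CPM in smooth muscle-like, 2417 ± 1440 CPM in pericyte-like and 2229 ± 518 CPM in endothelial-like cells (SD, n = 7). Perivascular macrophage-like, microglia-like and astrocyte-like cells averaged 165 ± 209, 121 ± 123 and 54.4 ± 19.4 CPM (SD, n = 7). Endothelial-like cells read more than each of these 3 classes in all 7 libraries. In perivascular macrophage-like cells WT of the Lama5 experiment had 10.3 and 5.34 CPM, against 239.1 and 299.0 CPM in WT of the Lama4 experiment. Summed pericyte markers in the same cells read 10.3 and 0 CPM against 29.7 and 124 CPM, and their part in this difference was not tested.

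The Hsp90 pair and the constitutive Hsp70 varied less between classes. Hsp90aa1, the inducible cytosolic Hsp90, averaged 2784 ± 785 CPM in perivascular macrophage-like, 2763 ± 1823 in pericyte-like, 2271 ± 797 in microglia-like, 1386 ± 284 in smooth muscle-like, 1263 ± 545 in endothelial-like and 516 ± 62.6 in astrocyte-like cells (SD, n = 7). Hsp90ab1, its constitutive partner, had its highest mean in endothelial-like cells at 3041 ± 444 CPM and its lowest in astrocyte-like cells at 800.1 ± 80.5 CPM (SD, n = 7), but in the Lama5 experiment alone pericyte-like cells ranked above endothelial-like cells, at 3592 against 3396 CPM. Hspa8, the constitutive cytosolic Hsp70, lay between 1972 ± 391 CPM in smooth muscle-like and 2457 ± 342 CPM in perivascular macrophage-like cells in 5 classes, with 1093 ± 155 CPM in astrocyte-like cells (SD, n = 7).

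Dnajb1, the J-domain protein that hands substrates to Hsp70, averaged 350.5 ± 119 CPM in perivascular macrophage-like and 259.6 ± 169 CPM in pericyte-like cells, and 34.8 ± 17.9 CPM in astrocyte-like cells (SD, n = 7). Hsph1, an exchange factor of the Hsp110 family, averaged 265 ± 162 CPM in pericyte-like and 56.0 ± 9.94 CPM in astrocyte-like cells (SD, n = 7). Hspa5 encodes BiP, the Hsp70 of the endoplasmic reticulum. It was highest in both macrophage classes, at 2049 ± 711 CPM in perivascular macrophage-like and 1586 ± 771 CPM in microglia-like cells, and lowest in smooth muscle-like cells at 482 ± 145 CPM (SD, n = 7).

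No pair of neighbours in these orders passed the test. Over 45 tests of adjacent classes (2-sided exact permutation of the sign over 7 libraries on log2(CPM + 1), smallest possible p 0.0156), the smallest adjusted p was 0.0501, and it was reached where all 7 libraries shared the direction. Such pairs included endothelial-like over astrocyte-like cells for Hspa1a (mean log2 difference 3.42 ± 0.57, SD, n = 7) and endothelial-like over perivascular macrophage-like cells for Hspb1 (5.35 ± 2.35, SD, n = 7). The order of Hspa1a in microglia-like and smooth muscle-like cells depended on the experiment: microglia-like cells read higher in 3 of 3 libraries of the Lama4 experiment and in 0 of 4 of the Lama5 experiment. Together the 9 genes took 0.870% to 0.936% of pericyte-like UMIs in WT of the Lama4 experiment and 2.78% to 2.88% in WT of the Lama5 experiment. In microglia-like cells the shares were 2.04% to 2.08% and 0.974% to 0.999%.

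**Figure D1:**
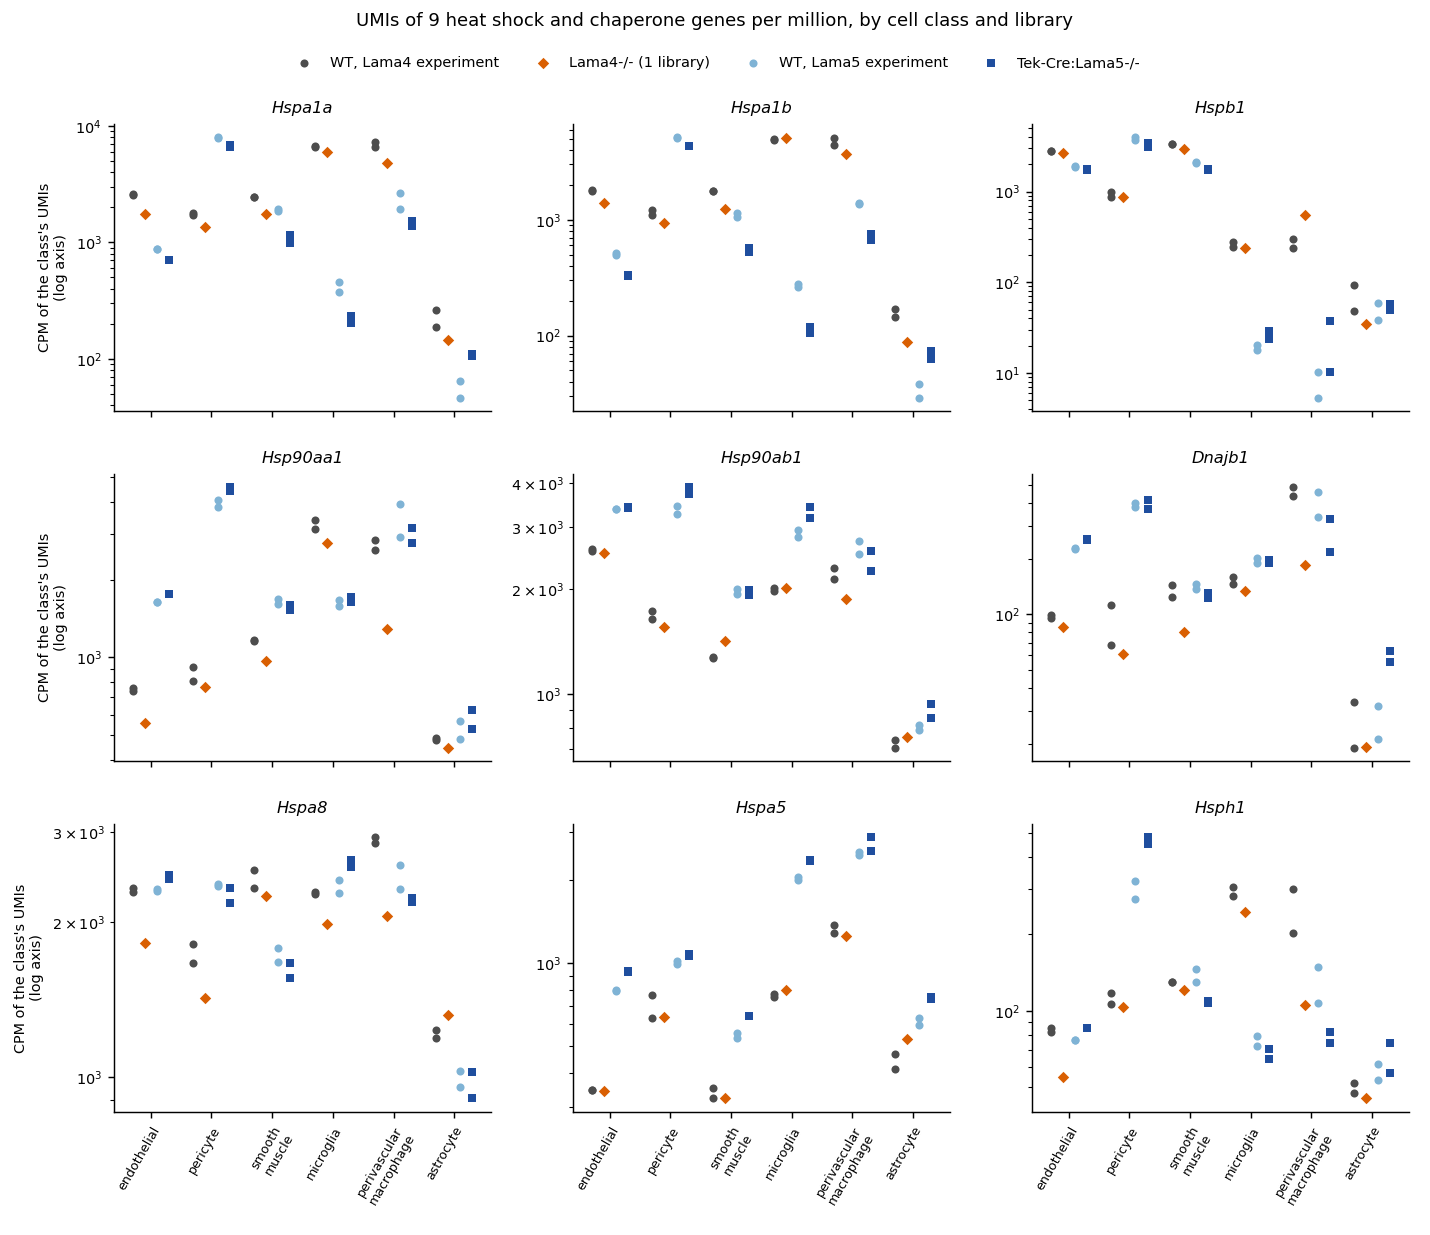
Level of each gene in each class, in CPM on a log axis, with 1 point per library marked by experiment and genotype. Hspa1a in pericyte-like cells lies between 6525 and 8088 CPM in the Lama5 experiment and between 1349 and 1788 CPM in the Lama4 experiment, while microglia-like cells show the reverse order.

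The share of cells with a UMI of Hspa1a gave the same picture. After each cell was thinned to 2000 UMIs, Hspa1a was seen in 57.7% to 58.6% of pericyte-like cells in WT of the Lama4 experiment and in 93.1% to 98.3% in WT of the Lama5 experiment. The unthinned shares were 60.6% to 64.4% and 86.4% to 90.5%, and thinning left out 73 and 77 and 46 and 62 shallower cells. Microglia-like cells had 77.6% to 78.3% in WT of the Lama4 experiment and 31.9% to 35.6% in WT of the Lama5 experiment (unthinned 89.2% to 90.9% and 43.0% to 47.7%, with 7 and 7 and 34 and 49 cells left out). The Lama5 knockout microglia-like cells had 26.9% to 27.1% (unthinned 33.2% to 36.8%, with 95 and 119 cells left out). In oligodendrocyte-like cells, where free RNA would also appear, the thinned share was 34.5% to 41.2% and 12.8% to 13.6% in the 2 WT groups. The median depths there were 11033 and 9689 and 7321 and 6856 UMIs per cell, against 2996 and 2921 and 2468 and 2386 in pericyte-like and 7476 and 7214 and 3984 and 3676 in microglia-like cells.

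Tek-Cre:Lama5-/- libraries were compared with their own WT libraries by edgeR's quasi-likelihood test within each class, with p-values adjusted over all genes of the class and values given as log2 fold change ± SE. The inducible Hsp70 genes fell in most classes, and Hspa5 and the Hsp90 genes rose in several. Of 53 gene and class pairs tested, 17 rose and 10 fell at an adjusted p under 0.05. In endothelial-like cells 6 of 9 rose (where 10.5% of all genes tested rose) and 2 fell (8.47%). In microglia-like cells 4 of 9 rose (8.1%) and 2 fell (5.02%), and in smooth muscle-like cells 1 of 9 rose (4.46%) and 3 fell (1.46%). Pericyte-like cells had 3 of 9 higher (0.455%) and 1 lower (0.211%). Astrocyte-like cells had 3 of 9 higher (9.68%) and none lower (7.08%), and perivascular macrophage-like cells had none of 8 higher (0.646%) and 2 lower (0.452%). Hspb1 was too low to test in the last class.

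Hspa1a in endothelial-like cells read 869.8 and 875 CPM in WT and 703 and 704 CPM in the Lama5 knockout (log2 fold change -0.23 ± 0.018, adjusted p = 1.48e-11). Hspa1b there read 496 and 514 CPM in WT and 332 and 326 CPM in the Lama5 knockout (log2 fold change -0.54 ± 0.022, adjusted p = 1.41e-18). Both knockout libraries were below both WT libraries for each gene, and both genes fell. In microglia-like cells Hspa1a read 457 and 378 CPM in WT and 235 and 203 CPM in the Lama5 knockout (log2 fold change -0.85 ± 0.073, adjusted p = 3.53e-11), and Hspa1b read 281 and 264 CPM in WT and 118 and 106 CPM in the Lama5 knockout (log2 fold change -1.20 ± 0.079, adjusted p = 3.15e-14). Both genes fell in microglia-like cells too, and again the groups did not overlap. Smooth muscle-like cells read 1936 and 1860 CPM in WT and 989.8 and 1166 CPM in the Lama5 knockout for Hspa1a (log2 fold change -0.72 ± 0.051, adjusted p = 4.58e-13). Hspa1b in smooth muscle-like cells read 1132 and 1063 CPM in WT and 522 and 565 CPM in the Lama5 knockout (log2 fold change -0.92 ± 0.052, adjusted p = 1.05e-15). Without the first knockout library both calls in smooth muscle-like cells were lost (Hspa1a -0.60, adjusted p = 0.0612; Hspa1b -0.86, adjusted p = 0.0612).

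In perivascular macrophage-like cells Hspa1a read 2643 and 1923 CPM in WT and 1392 and 1517 CPM in the Lama5 knockout (log2 fold change -0.59 ± 0.13, adjusted p = 0.00669), and Hspa1b read 1396 and 1362 CPM in WT and 664 and 746 CPM in the Lama5 knockout (log2 fold change -0.90 ± 0.14, adjusted p = 4.50e-05). Both fell, and the spread between the 2 WT libraries was wide for Hspa1a, whose call was lost without the first WT library (-0.31, adjusted p = 0.36) or the first knockout library (-0.53, adjusted p = 0.0732). Pericyte-like cells, with the highest levels, read 7806 and 8088 CPM in WT and 6525 and 6839 CPM in the Lama5 knockout for Hspa1a (log2 fold change -0.20 ± 0.048, adjusted p = 0.0286). That call was lost without the second WT library (-0.15, adjusted p = 0.529) or the first knockout library (-0.16, adjusted p = 0.365). Hspa1b in pericyte-like cells read 5221 and 5032 CPM in WT and 4369 and 4353 CPM in the Lama5 knockout (log2 fold change -0.18 ± 0.052, adjusted p = 0.0918) and did not pass the test, although it did with a replicate block (-0.18, adjusted p = 0.00445).

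Astrocyte-like cells differed in direction. Hspa1a read 64.5 and 46.6 CPM in WT and 111 and 106 CPM in the Lama5 knockout (log2 fold change 0.91 ± 0.21, adjusted p = 0.00336). Hspa1b read 38.3 and 29.1 CPM in WT and 72.9 and 62.8 CPM in the Lama5 knockout (log2 fold change 0.95 ± 0.26, adjusted p = 0.0144), and Dnajb1 read 21.2 and 32.0 CPM in WT and 63.3 and 55.1 CPM in the Lama5 knockout (log2 fold change 1.08 ± 0.29, adjusted p = 0.0116). All 3 rose, from levels that were the lowest of any class. The makeup of the class moved at the same time. The summed level of astrocyte markers was 15940 to 16040 CPM in WT and 11430 to 12530 CPM in the knockout, microglial markers in these cells went from 388 to 397 to 1453 to 1944 CPM, and oligodendrocyte markers from 620.0 to 728 to 1242 to 1785 CPM, and their part in the result was not tested. Within astrocyte-like cluster 15 Hspa1a read 90.9 and 81.6 CPM in WT and 167 and 122 CPM in the knockout. The Hspa1a call was lost without the second WT library (0.68, adjusted p = 0.0959) and the Dnajb1 call without the first (0.81, adjusted p = 0.116) or without the first knockout library (1.00, adjusted p = 0.0517). Hspa1b lost its call without the second WT library (0.75, adjusted p = 0.145) or the first knockout library (0.86, adjusted p = 0.0807). DESeq2, the edgeR fit without a filter on low counts and the stricter cell filter called none of the 3 genes (adjusted p 0.0641 to 0.925). Outside the classes compared, oligodendrocyte-like clusters 4 and 12 also read higher for Hspa1a and Hspa1b in both knockout libraries. Hspa1a read 96.5 and 99.5 CPM in WT and 145 and 122 CPM in the knockout in cluster 4. In cluster 12 it read 96.9 and 86.0 CPM in WT and 110 and 125 CPM in the knockout, and neither cluster was tested.

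Of the 5 classes where Hspb1 could be tested, it passed the test in smooth muscle-like cells, where it fell. It read 2103 and 2066 CPM in WT and 1728 and 1753 CPM in the Lama5 knockout there (log2 fold change -0.17 ± 0.041, adjusted p = 0.00826), with no overlap, and the call was lost without the first WT library (-0.15, adjusted p = 0.13) or either knockout library (-0.15, adjusted p = 0.352 and -0.18, adjusted p = 0.265). Endothelial-like cells read 1865 and 1888 CPM in WT and 1774 and 1746 CPM in the Lama5 knockout (log2 fold change -0.012 ± 0.016, adjusted p = 0.682). On unscaled totals this difference passed the test, at -0.093 with an adjusted p of 0.000411. Pericyte-like cells read 3681 and 4035 CPM in WT and 3062 and 3411 CPM in the Lama5 knockout (log2 fold change -0.20 ± 0.059, adjusted p = 0.102), below WT in both libraries but short of the threshold, which was passed without the first WT library (-0.27, adjusted p = 0.0322) or the second knockout library (-0.28, adjusted p = 0.0205) and with a replicate block (-0.20, adjusted p = 0.00444). Microglia-like cells read 20.5 and 17.7 CPM in WT and 23.8 and 29.2 CPM in the Lama5 knockout (log2 fold change 0.54 ± 0.20, adjusted p = 0.0787), and this passed without the first knockout library (0.69, adjusted p = 0.0476).

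Hsp90aa1 rose in endothelial-like cells, from 1643 and 1631 CPM in WT to 1752 and 1754 CPM in the Lama5 knockout (log2 fold change 0.18 ± 0.017, adjusted p = 4.83e-10). Pericyte-like cells read 3811 and 4076 CPM in WT and 4564 and 4398 CPM in the Lama5 knockout (log2 fold change 0.24 ± 0.055, adjusted p = 0.0153), also without overlap. Microglia-like libraries overlapped at 1576 and 1660 CPM in WT and 1717 and 1644 CPM in the Lama5 knockout (log2 fold change 0.14 ± 0.038, adjusted p = 0.00998). Leaving out the first WT or the first knockout library ended the calls in pericyte-like (0.18, adjusted p = 0.333; 0.22, adjusted p = 0.148) and microglia-like cells (0.11, adjusted p = 0.127; 0.11, adjusted p = 0.139). Hsp90ab1 read 2946 and 2820 CPM in WT and 3422 and 3193 CPM in the Lama5 knockout in microglia-like cells (log2 fold change 0.28 ± 0.035, adjusted p = 2.06e-07) and 3270 and 3452 CPM in WT and 3736 and 3910 CPM in the Lama5 knockout in pericyte-like cells (log2 fold change 0.24 ± 0.056, adjusted p = 0.0213). It rose in both classes, though the pericyte-like call was lost without the first WT (0.19, adjusted p = 0.332) or the second knockout library (0.21, adjusted p = 0.22). In endothelial-like cells its change was small, with 3378 and 3393 CPM in WT and 3420 and 3394 CPM in the Lama5 knockout (log2 fold change 0.089 ± 0.016, adjusted p = 5.24e-05), and on unscaled totals it was 0.0092 with an adjusted p of 0.763.

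Hspa8 rose in endothelial-like cells, with 2322 and 2299 CPM in WT and 2476 and 2434 CPM in the Lama5 knockout (log2 fold change 0.17 ± 0.016, adjusted p = 9.99e-10), and in microglia-like cells, with 2420 and 2280 CPM in WT and 2644 and 2569 CPM in the Lama5 knockout (log2 fold change 0.23 ± 0.035, adjusted p = 7.41e-06). No library of one genotype crossed into the other in either class. Dnajb1 rose in endothelial-like cells from 229.7 and 227 CPM to 254 and 257 CPM (log2 fold change 0.24 ± 0.025, adjusted p = 6.47e-09). Hsph1 read 76.6 and 76.8 CPM in WT and 85.2 and 85.5 CPM in the Lama5 knockout in the same cells (log2 fold change 0.23 ± 0.04, adjusted p = 3.63e-05). In pericyte-like cells Hsph1 showed its largest difference, with 274 and 322 CPM in WT and 479.7 and 453 CPM in the Lama5 knockout (log2 fold change 0.70 ± 0.13, adjusted p = 0.000703), a call that was lost without the first WT library (0.58, adjusted p = 0.0901). Both genes rose where they were called, and genotypes did not overlap in these pairs. DESeq2 called none of the 9 genes in pericyte-like cells (adjusted p for Hsph1 0.351).

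Hspa5, the endoplasmic reticulum Hsp70, read higher in both knockout libraries than in both WT libraries in all 6 classes and rose past the threshold in 3. The share of all genes that separate in all 6 classes was not counted. The gap was narrow in perivascular macrophage-like cells, at 2479 and 2537 CPM in WT and 2562 and 2864 CPM in the knockout. Endothelial-like cells read 799.7 and 792 CPM in WT and 938 and 927 CPM in the Lama5 knockout (log2 fold change 0.31 ± 0.018, adjusted p = 9.45e-15). Microglia-like cells read 2004 and 2056 CPM in WT and 2369 and 2351 CPM in the Lama5 knockout (log2 fold change 0.30 ± 0.034, adjusted p = 3.17e-08). Smooth muscle-like cells read 557 and 535 CPM in WT and 640.3 and 642 CPM in the Lama5 knockout (log2 fold change 0.33 ± 0.053, adjusted p = 5.11e-05), where the call was lost without the first (0.33, adjusted p = 0.25) or second knockout library (0.32, adjusted p = 0.217). The estimates in pericyte-like, astrocyte-like and perivascular macrophage-like cells were 0.14 (adjusted p = 0.601), 0.22 (adjusted p = 0.164) and 0.18 (adjusted p = 0.535).

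Of the 27 called pairs, 12 passed under every alternative of normalization, filtering, clustering and left-out library. They were Hspa1a, Hspa1b, Hsp90aa1, Dnajb1, Hspa8, Hspa5 and Hsph1 in endothelial-like cells and Hspa1a, Hspa1b, Hsp90ab1, Hspa8 and Hspa5 in microglia-like cells, with adjusted p of at most 0.0111 over their alternatives. The other 15 calls, among them every call in astrocyte-like, pericyte-like, smooth muscle-like and perivascular macrophage-like cells, missed the threshold under at least 1 alternative, with adjusted p up to 0.925.

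**Figure D2:**
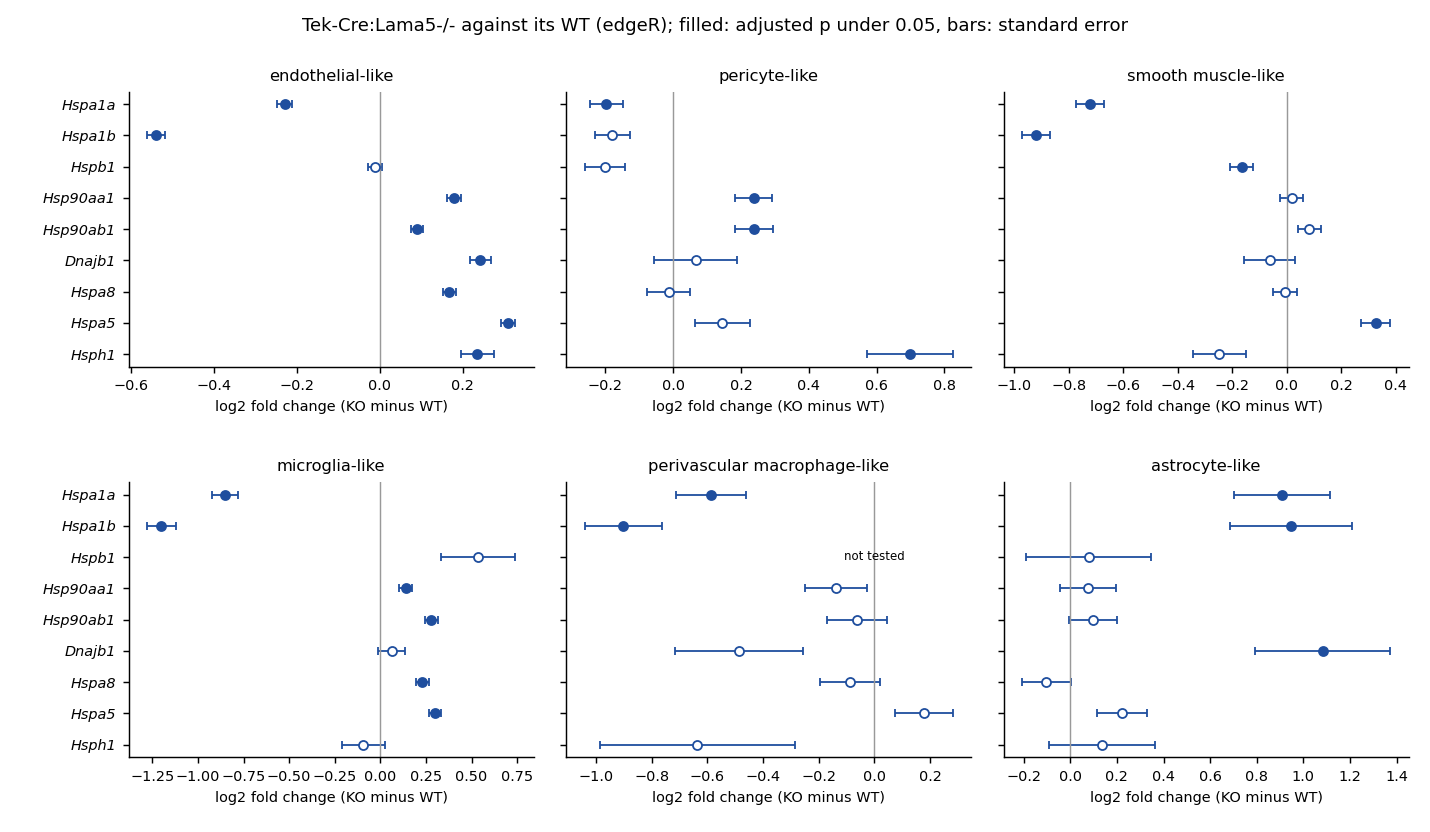
Log2 fold change of each gene in Tek-Cre:Lama5-/- against its WT libraries in each class, with bars for the SE and filled points for an adjusted p under 0.05; the horizontal scale differs between panels. Hspa1a and Hspa1b lie left of 0 in 5 classes and right of 0 in astrocyte-like cells, where they stand at 0.91 and 0.95.

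The endothelial-like differences of Hspa1a, Hspa1b and Hspa5 had the same direction in each of its main clusters. Across the 5 clusters that hold most endothelial-like cells of the Lama5 experiment, Hspa1a, Hspa1b and Hspb1 were lower in both knockout libraries than in both WT libraries in 5 of 5, and Hspa5 was higher in 5 of 5. These cluster levels are unscaled, and the share of all genes that separate in 5 of 5 was not counted. For Hspb1 the edgeR log2 fold change in the whole class was -0.012 with scaling (adjusted p = 0.682) and -0.0925 on unscaled totals. Its 5 of 5 therefore cannot be told apart from the scaling. In cluster 0 Hspa1a read 1013 and 966 CPM in WT and 859 and 847 CPM in the knockout. In cluster 5, whose leading genes Igfbp3, Sema3g and Edn3 include arterial markers, it read 685 and 660.1 CPM in WT and 505 and 532 CPM in the knockout. Hspa5 in these clusters read 837 and 829 CPM in WT and 1009 and 982 CPM in the knockout, and 750.5 and 772 CPM in WT and 850.3 and 836 CPM in the knockout. Hspa8 was higher in 4 clusters and lower in cluster 2, where Gm42418 is among the leading genes and Hspa8 read 1996 and 1956 CPM in WT and 1955 and 1878 CPM in the knockout. Dnajb1 was higher without overlap in 4 of 5 clusters, Hsp90aa1 and Hsph1 in 3 of 5, and Hsp90ab1 in 1 of 5. Clusters were drawn from all cells and are no independent test.

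**Figure D3:**
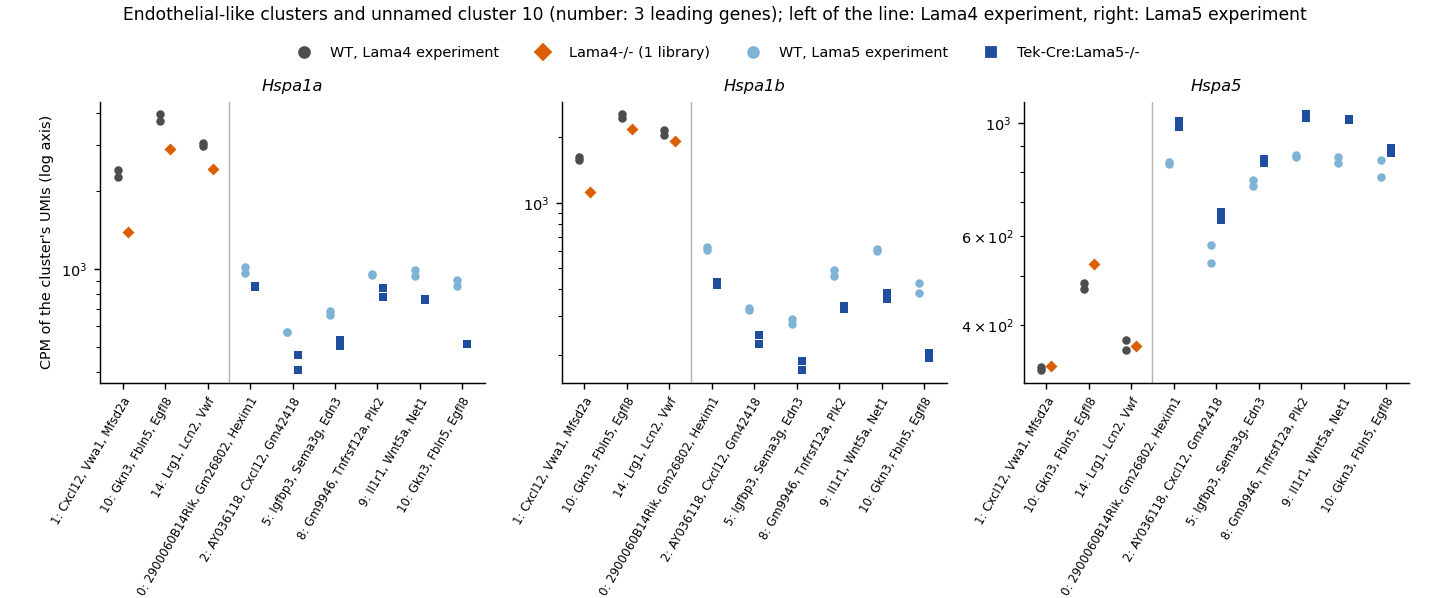
Level of Hspa1a, Hspa1b and Hspa5 in CPM (log axis) in each endothelial-like cluster and in unnamed cluster 10, with 1 point per library marked by group. Hspa1a reads lower and Hspa5 higher in both knockout libraries than in both WT libraries in each of the 5 endothelial-like clusters of the Lama5 experiment.

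Whether the knockout effect differed between classes was tested as an interaction with endothelial-like cells in edgeR, and 12 of 45 pairs passed. They were 2 in astrocyte-like cells (where 7.49% of all genes passed), 3 in microglia-like (4.28%), 1 in pericyte-like (0.0772%), 6 in smooth muscle-like (1.38%) and none in perivascular macrophage-like cells (0.0242%). The fall of Hspa1a was deeper in microglia-like cells by -0.60 ± 0.08 (adjusted p = 9.86e-06) and in smooth muscle-like cells by -0.50 ± 0.05 (adjusted p = 1.58e-09), in log2 units ± SE. Hspa1b was likewise deeper by -0.65 ± 0.083 (adjusted p = 5.95e-06) and -0.38 ± 0.056 (adjusted p = 1.27e-05). In pericyte-like cells the effect on Hspa1b was higher than in endothelial-like cells, by 0.36 ± 0.078 (adjusted p = 0.0197). The opposite directions in astrocyte-like and endothelial-like cells also passed, at 1.12 ± 0.22 (adjusted p = 0.00131) for Hspa1a and 1.47 ± 0.27 (adjusted p = 0.000457) for Hspa1b. In smooth muscle-like cells the effects on Hspb1, Hsp90aa1, Hspa8 and Hsph1 were lower than in endothelial-like cells by between -0.48 and -0.16.

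In the Lama4-/- comparison the knockout is 1 library and no test can be made, so the intervals are exact Poisson intervals that cover counting error only, and ratios are log2 of scaled CPM + 0.5 against the mean of the 2 WT libraries. Most of the 9 genes read lower in the knockout library. Of 54 gene and class pairs, 43 lay below both WT libraries, 7 above both and 4 between. In 30 of the 54 the knockout interval was apart from both WT intervals, and the same share over all genes was not counted. These were 6 of 9 in endothelial-like, 5 in microglia-like, 6 in smooth muscle-like, 3 in pericyte-like, 8 in perivascular macrophage-like and 2 in astrocyte-like cells. In endothelial-like cells all 9 genes were below both WT libraries, where 27.8% of all genes at 20 CPM or more were below both and 54.4% above. In microglia-like cells 6 of 9 were below and 2 above (33.1% and 47.6% of all genes), and in smooth muscle-like cells 7 below and 1 above (34.8% and 41.1%). Pericyte-like cells had 8 below and none above (33.7% and 37.2%). Perivascular macrophage-like cells had 8 below and 1 above (33.1% and 37.8%), and astrocyte-like cells 5 below and 3 above (32.4% and 36.9%). The median log2 ratio of the 9 genes was -0.40 in endothelial-like cells, against -0.0094 for all genes, and -0.52 in perivascular macrophage-like cells, against -0.012.

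Hspa1a was below both WT libraries in 6 of 6 classes, and the share of all genes for which this holds was not counted. Within the astrocyte-like class, clusters 15 and 16 read lower for Hspa1a and Hspa1b, but cluster 20 went the other way. It read 196 and 286 CPM in WT and 513 CPM in the knockout for Hspa1a, and 151 and 150.5 CPM and 246 CPM for Hspa1b. Endothelial-like cells read 2554 and 2620 CPM in WT and 1742 CPM (95% interval 1720 to 1765) in the Lama4 knockout library, a log2 ratio of -0.62. Microglia-like cells read 6603 and 6732 CPM in WT and 5919 CPM (95% interval 5863 to 5976) in the Lama4 knockout library, a ratio of -0.20. Pericyte-like cells read 1713 and 1788 CPM in WT and 1349 CPM (95% interval 1266 to 1436) in the Lama4 knockout library, a ratio of -0.39. The knockout interval lay below both WT values in each of these classes. Pericyte-like cluster 11, with 243 and 241 cells in WT and 211 in the knockout, had lower levels than the whole class, at 458 and 516 CPM in WT and 261 CPM in the knockout. The other cells of the class were 52 and 46 in WT and 29 in the knockout, in cluster 26 with leading genes Col3a1, Ifitm1 and Cxcl1. Hspa1b read 1793 and 1781 CPM in WT and 1395 CPM (95% interval 1375 to 1416) in the Lama4 knockout library in endothelial-like cells, a log2 ratio of -0.41. In microglia-like cells it did not move with Hspa1a, at 4898 and 4951 CPM in WT and 5050 CPM (95% interval 4998 to 5103) in the Lama4 knockout library. Hspb1 in endothelial-like cells read 2823 and 2826 CPM in WT and 2684 CPM (95% interval 2656 to 2712) in the Lama4 knockout library, close to WT at a ratio of -0.13. In perivascular macrophage-like cells Hspb1 was higher, at 239 and 299 CPM in WT and 551 CPM (95% interval 491 to 617) in the Lama4 knockout library, and it was the 1 pair past 1.5-fold upwards. Summed pericyte markers in these cells were also higher, at 29.7 and 124 CPM in WT and 308 CPM in the knockout library, with 5, 7 and 7 of the 7 markers above 0, and their part in the Hspb1 value was not tested.

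Hsp90aa1 and Hsph1 were also below both WT libraries in 6 of 6 classes. For both genes the knockout interval overlapped a WT interval in astrocyte-like and pericyte-like cells, and for Hsph1 also in smooth muscle-like cells. The share of all genes below both WT libraries in every class was not counted. Within the astrocyte-like class both genes were below WT in cluster 16 and between the WT libraries in cluster 15. In cluster 20 both were above WT, at 944 CPM against 564 and 877 CPM for Hsp90aa1 and 65.7 CPM against 20.4 and 60.2 CPM for Hsph1. Hsp90aa1 in endothelial-like cells read 744 and 758 CPM in WT and 558 CPM (95% interval 545 to 571) in the Lama4 knockout library, a log2 ratio of -0.48, and in perivascular macrophage-like cells 2836 and 2602 CPM in WT and 1286 CPM (95% interval 1193 to 1384) in the Lama4 knockout library, a ratio of -1.10. Hsph1 read 85.3 and 82.5 CPM in WT and 54.8 CPM (95% interval 50.9 to 59.0) in the Lama4 knockout library in endothelial-like cells, a ratio of -0.66. Dnajb1 in perivascular macrophage-like cells read 489 and 434 CPM in WT and 185 CPM (95% interval 151 to 225) in the Lama4 knockout library, a ratio of -1.34. Hsph1 in the same class had a ratio of -1.28. These are the steepest ratios of the comparison, in the class with the fewest cells. Hspa8 read 2297 and 2330 CPM in WT and 1824 CPM (95% interval 1801 to 1847) in the Lama4 knockout library in endothelial-like cells, a ratio of -0.40, which was again below both WT libraries.

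In endothelial-like cells Hsp90ab1 and Hspa5 stayed near WT in this comparison. Their endothelial-like values were 2568 and 2607 CPM in WT and 2527 CPM (95% interval 2500 to 2555) in the Lama4 knockout library for Hsp90ab1 and 345 and 346 CPM in WT and 343 CPM (95% interval 333 to 354) in the Lama4 knockout library for Hspa5. Hspa5 was higher than both WT libraries in astrocyte-like cells, at 412 and 467 CPM in WT and 532 CPM (95% interval 499.8 to 566) in the Lama4 knockout library. Hsp90ab1 in perivascular macrophage-like cells was lower, at 2291 and 2128 CPM in WT and 1877 CPM (95% interval 1764 to 1995) in the knockout library. In smooth muscle-like cells it was higher, at 1268 and 1280 CPM in WT and 1424 CPM (95% interval 1372 to 1477) in the knockout library. Past the 1.5-fold size rule were 9 pairs downwards and 1 upwards: 2 in endothelial-like cells (0.943% of all genes), 3 in astrocyte-like (3.06%), 4 in perivascular macrophage-like (12.8%), 1 in smooth muscle-like (2.84%), and none in microglia-like (1.28%) or pericyte-like cells (8%). The immediate early genes known to answer tissue dissociation, summed, read 14180 and 13920 CPM in WT and 15740 CPM in the knockout library in endothelial-like cells, 26970 and 25410 CPM against 20420 CPM in perivascular macrophage-like cells, and 8974 and 11380 CPM against 8444 CPM in pericyte-like cells.

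**Figure D4:**
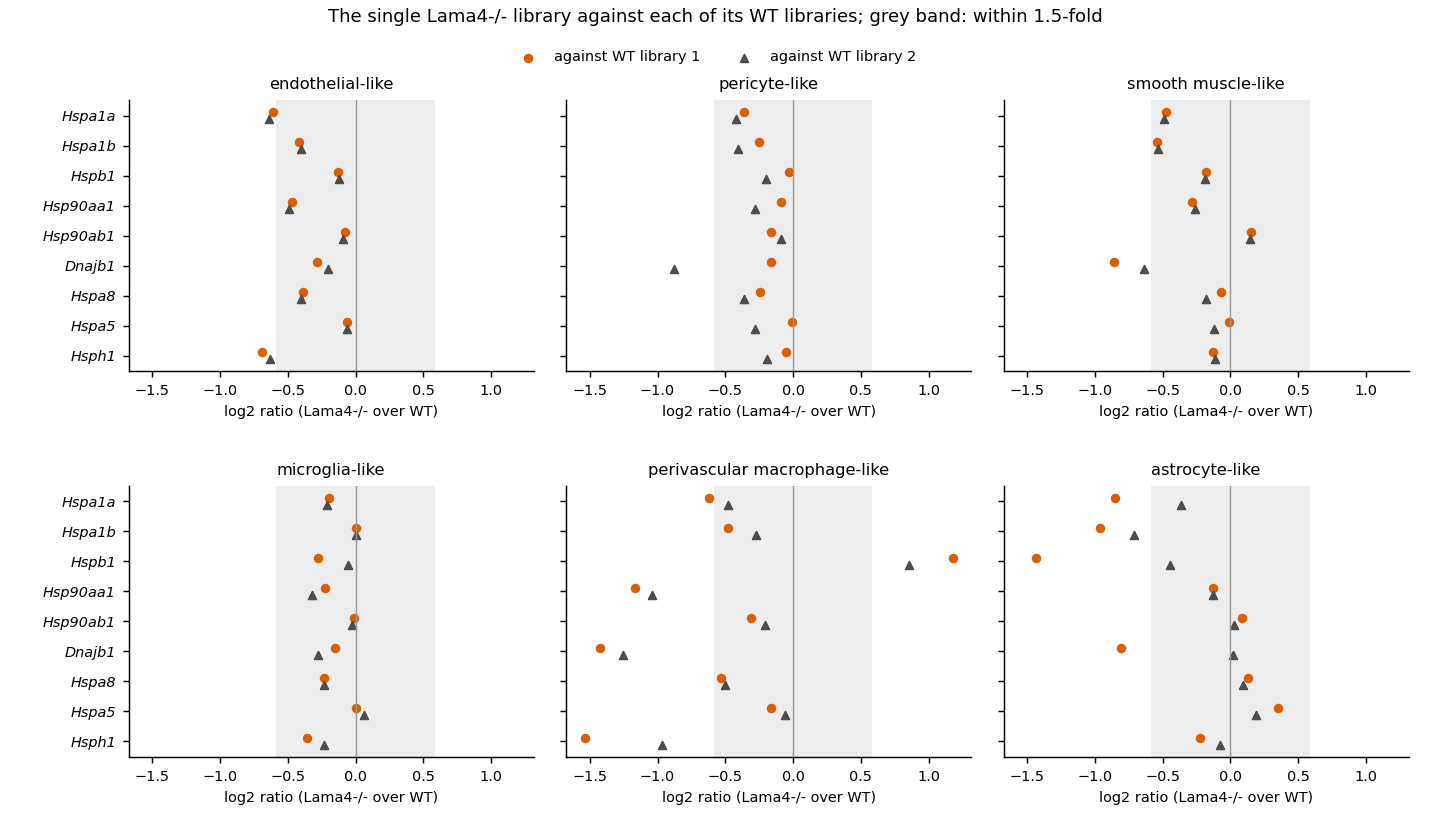
Log2 ratio of the Lama4-/- library to each of its 2 WT libraries (circles and triangles) for each gene and class, with a grey band for ratios within 1.5-fold. All endothelial-like points lie below 0, and the ratios to the WT mean run there from -0.66 for Hsph1 to -0.063 for Hspa5.

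The WT libraries of the 2 experiments were also compared with each other. Inducible Hsp70 was lower in WT of the Lama5 experiment in all classes but pericyte-like cells, and Hspa5 was higher in every class compared. This comparison uses the same WT libraries as the knockout comparisons, and the pool of brains and the experiment cannot be told apart. In edgeR, 42 of 54 gene and class pairs were called, 22 higher and 20 lower in WT of the Lama5 experiment. Microglia-like cells had 3 of 9 higher (26.1% of all genes) and 6 lower (24.3%). Pericyte-like cells had 9 of 9 higher (6.28% of all genes) and none lower (4.59%), and endothelial-like cells had 5 of 9 higher (28.9% of all genes) and 3 lower (27.2%). Smooth muscle-like cells had 3 of 9 higher (14.8% of all genes) and 4 lower (12.8%). Perivascular macrophage-like cells had 1 of 9 higher (5.54% of all genes) and 4 lower (2.92%), and astrocyte-like cells had 1 of 9 higher (6.56% of all genes) and 3 lower (5.81%).

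For the inducible Hsp70 genes the gap was widest in microglia-like cells. Hspa1a in microglia-like cells read 6603 and 6732 CPM in WT of the Lama4 experiment and 457 and 378 CPM in WT of the Lama5 experiment (log2 fold change -4.17 ± 0.052, adjusted p = 2.48e-32). Hspa1b in microglia-like cells read 4898 and 4951 CPM in WT of the Lama4 experiment and 281 and 264 CPM in WT of the Lama5 experiment (log2 fold change -4.36 ± 0.045, adjusted p = 2.31e-34). Both were lower in the 2 libraries of the Lama5 experiment, far outside the spread between libraries of an experiment. In pericyte-like cells the direction turned, with 1713 and 1788 CPM in WT of the Lama4 experiment and 7806 and 8088 CPM in WT of the Lama5 experiment for Hspa1a (log2 fold change 2.26 ± 0.063, adjusted p = 1.83e-14). Pericyte-like cluster 11, which both experiments share, read 458 and 516 CPM against 8266 and 8423 CPM for Hspa1a. Endothelial-like cells had log2 fold changes of -1.46 for Hspa1a and -1.72 for Hspa1b. Across classes Hspa1a was lower in 5 and higher in 1, and so was Hspa1b.

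Hspb1 was lower in 4 classes and higher in pericyte-like cells. Microglia-like cells read 278 and 242 CPM in WT of the Lama4 experiment and 20.5 and 17.7 CPM in WT of the Lama5 experiment (log2 fold change -3.94 ± 0.12, adjusted p = 3.85e-22), and pericyte-like cells read 877 and 986 CPM in WT of the Lama4 experiment and 3681 and 4035 CPM in WT of the Lama5 experiment (log2 fold change 2.12 ± 0.086, adjusted p = 3.06e-12). Hsph1 in microglia-like cells read 305 and 282 CPM in WT of the Lama4 experiment and 79.9 and 72.6 CPM in WT of the Lama5 experiment (log2 fold change -2.12 ± 0.081, adjusted p = 4.62e-20). Hsp90aa1 moved in opposite directions, with 3146 and 3389 CPM in WT of the Lama4 experiment and 1576 and 1660 CPM in WT of the Lama5 experiment in microglia-like cells (log2 fold change -1.20 ± 0.039, adjusted p = 9.82e-22) and 744 and 758 CPM in WT of the Lama4 experiment and 1643 and 1631 CPM in WT of the Lama5 experiment in endothelial-like cells (log2 fold change 1.23 ± 0.026, adjusted p = 8.62e-22). Dnajb1 was higher in endothelial-like cells by 1.33 and in pericyte-like cells by 2.19. Hsp90ab1 was called higher in 4 classes, by 0.35 in microglia-like to 1.07 in pericyte-like cells.

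Hspa5 was higher in WT of the Lama5 experiment in 6 of 6 classes. Endothelial-like cells read 345 and 346 CPM in WT of the Lama4 experiment and 799.7 and 792 CPM in WT of the Lama5 experiment (log2 fold change 1.31 ± 0.028, adjusted p = 1.57e-21), microglia-like cells 776 and 751 CPM in WT of the Lama4 experiment and 2004 and 2056 CPM in WT of the Lama5 experiment (log2 fold change 1.23 ± 0.04, adjusted p = 8.56e-22), and the smallest difference was in astrocyte-like cells at 0.48. No library overlapped in any class. Hspa8 was called higher in endothelial-like (0.10) and lower in microglia-like cells (-0.14), but on unscaled totals both signs turned, to -0.0014 and 0.042, with adjusted p of 0.966 and 0.37. In smooth muscle-like cells Hspa8 read 2335 and 2537 CPM in WT of the Lama4 experiment and 1783 and 1675 CPM in WT of the Lama5 experiment (log2 fold change -0.57 ± 0.045, adjusted p = 3.24e-09). Of the 42 calls, 37 passed under every alternative. Besides Hspa8 in endothelial-like cells, calls were lost for Hspa8 in microglia-like cells without the second WT library of the Lama5 experiment (-0.086, adjusted p = 0.0541) and in astrocyte-like cells without the first (-0.25, adjusted p = 0.129), for Dnajb1 in microglia-like cells without the first WT library of either experiment (0.095, adjusted p = 0.368; 0.13, adjusted p = 0.261), and for Hsph1 in perivascular macrophage-like cells without the first WT library of the Lama4 experiment (-0.71, adjusted p = 0.108) or the second of the Lama5 experiment (-0.75, adjusted p = 0.0742). The summed immediate early genes read 14180 and 13920 CPM in WT of the Lama4 experiment and 31060 and 31360 CPM in WT of the Lama5 experiment in endothelial-like cells, 8974 and 11380 CPM against 21440 and 21750 CPM in pericyte-like cells, 16850 and 17300 CPM against 22040 and 21520 CPM in microglia-like cells, and 1187 and 1150 CPM against 5524 and 5062 CPM in astrocyte-like cells. They were higher in the Lama5 experiment in these 4 classes. Smooth muscle-like cells, where Hspa1a was lower too, read 22250 and 23440 CPM against 23250 and 22910 CPM, which overlap, and perivascular macrophage-like cells 26970 and 25410 CPM against 31430 and 29330 CPM. The part of these genes in the differences was not tested.

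**Figure D5:**
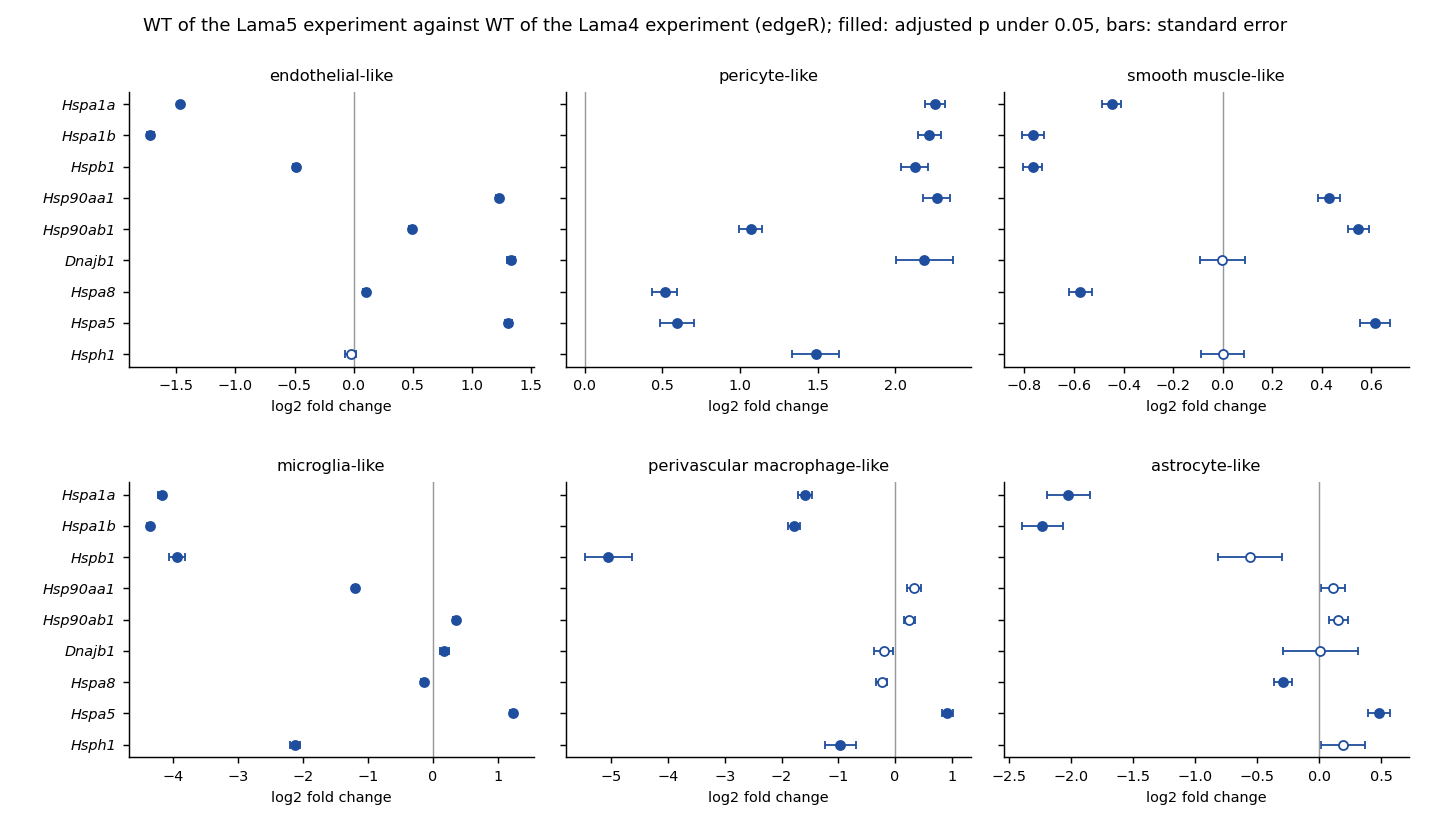
Log2 fold change of each gene in WT of the Lama5 experiment against WT of the Lama4 experiment in each class, with bars for the SE and filled points for an adjusted p under 0.05; the horizontal scale differs between panels. All 9 genes lie right of 0 in pericyte-like cells, while Hspa1a and Hspa1b stand at -4.17 and -4.36 in microglia-like cells.

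Other genes of these pathways were read from lists of cytosolic co-chaperones and HSF1 targets, the CCT chaperonin that folds actin and tubulin, mitochondrial chaperones, and endoplasmic reticulum chaperones with the unfolded protein response. In endothelial-like cells of the Lama5 knockout, 7 of 34 rose and 3 fell among co-chaperones and HSF1 targets (median log2 0.061 against -0.0007 for all genes). Hspa2, a relative of the Hsp70 genes, rose by 0.31, while the small heat shock gene Cryab was at -0.44 and Hspa12b at -0.20, both falls past the threshold. Among endoplasmic reticulum genes 5 of 26 rose and 1 fell (median -0.025 against -0.0007 for all genes), with Dnajb9, a co-chaperone of Hspa5, at 0.24, the stress transcription factor Atf4 at 0.24 and the disulfide isomerase Pdia6 at -0.13. Of the CCT subunits 1 of 7 rose and 0 fell, and of the mitochondrial chaperones 2 of 8 rose and 0 fell. Of all genes tested in these cells 10.5% rose and 8.47% fell. Hspa5 thus rose while most of its list did not pass the test.

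In microglia-like cells of the Lama5 knockout 8 of 30 rose and 0 fell among co-chaperones and HSF1 targets, where 8.1% of all genes rose and 5.02% fell, while Hspa1a and Hspa1b fell. Bag3, a co-chaperone of Hsp70 in autophagy, rose by 0.57, Ptges3, a co-chaperone of Hsp90, by 0.49, and Hspa4, a relative of Hsph1, by 0.43. In smooth muscle-like cells 4 of 33 rose and 1 fell (4.46% and 1.46% of all genes), and of the endoplasmic reticulum genes 2 of 22 rose and 0 fell, namely Dnajb9 (0.43) and Atf4 (0.38). No gene of these 4 lists passed in pericyte-like or perivascular macrophage-like cells. Astrocyte-like cells had 1 higher and 4 lower co-chaperones of 32 (9.68% and 7.08% of all genes), with Hspb8 at -1.26. Immediate early genes were mixed in endothelial-like cells (6 of 16 rose and 8 fell) and mostly higher in astrocyte-like cells (10 of 16 rose and 1 fell), where Atf3 rose by 1.49. In microglia-like cells 4 of 16 rose and 9 fell (median log2 -0.27 against -0.012 for all genes), and in perivascular macrophage-like cells 0 of 16 rose and 6 fell (median -0.23 against -0.0031 for all genes, with 0.646% of all genes higher and 0.452% lower). Hspa1a and Hspa1b fell in both of these classes, and the part of the immediate early genes in that was not tested. Smooth muscle-like and pericyte-like cells had 5 of 16 rose and 4 fell and 3 of 16 rose and 3 fell. Summed without scaling, the immediate early genes read 31060 and 31360 CPM in WT and 28730 and 28240 CPM in the knockout in endothelial-like cells. In perivascular macrophage-like cells the sums were 31430 and 29330 CPM against 22970 and 24580 CPM. The sums of microglia-like, smooth muscle-like and pericyte-like cells were also lower without overlap. Astrocyte-like cells read higher, at 5524 and 5062 CPM against 7370 and 6749 CPM. Their part in the Hsp70 differences was not tested.

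Between the WT groups, these lists moved as follows. In pericyte-like cells 10 of 29 rose and 0 fell among co-chaperones and HSF1 targets (6.28% and 4.59% of all genes), with Bag3 at 1.79 and Dnaja1 at 1.48, and the mitochondrial Hspe1 rose by 1.90. In microglia-like cells 12 of 32 rose and 9 fell, where 26.1% of all genes rose and 24.3% fell, so the lower count is near the background. The stress genes Atf4 and Ddit3 rose in microglia-like cells by 2.31 and 2.15, while the mitochondrial Hspd1 and Hspe1 fell, at -1.05 and -1.05. All 16 immediate early genes were higher in endothelial-like (28.9% of all genes) and in astrocyte-like cells (6.56%). In the Lama4-/- library, past 1.5-fold were 0 of 28 co-chaperones in endothelial-like cells (0.943% of all genes) and 5 of 24 in perivascular macrophage-like cells (12.8%), all of the latter downwards, with Bag3 at a log2 ratio of -2.39.

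As a description across the 42 class and library means, which share libraries and depth, Hspa1a and Hspa1b followed each other closely (Pearson's r of log2 levels 0.995), and Hspa1a and Hspa5 did not (0.036). Hsp90aa1 was most like Dnajb1 (0.895). With the 9 genes themselves left out of the ranking of 7217 genes, the pattern most like that of Hspa1a was Mrfap1 (r = 0.854), and that most like Hspb1 was Igfbp7 (0.922), a gene of vessel walls. For Hsp90ab1 it was the J-domain gene Dnaja1 (0.935), for Dnajb1 and Hsp90aa1 the immediate early gene Jun (0.895 and 0.805), and for Hsph1 the mitochondrial chaperonin Hspd1 (0.855). Hspa8 was most like Tuba1b (0.866) and Hspa5 most like Jpt1 (0.934).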

How the data were processed

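Cells from the cortical plate were profiled with Chromium 3' v3 chemistry. The deposited values are UMI counts per gene and barcode, made by the authors with Cell Ranger 3.1.0, per the file headers, on mm10, per the submitters' processing notes, which also name Seurat 3.1. Of the 8 deposited samples the 2 Lama4-/- files hold identical counts and were used as 1 library, giving 7.

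Barcodes with at least 500 genes and at most 15% mitochondrial UMIs were kept, and the highest-scoring doublets were removed at 0.8% per 1000 cells. Cells were clustered (2000 variable genes, 30 components, 15 neighbours, Leiden resolution 1), with 108 genes left out of the variable genes. These were the 9 genes, the lists of chaperone, stress-response and immediate early genes, Lama4, Lama5 and sex-linked genes such as Xist. Clusters were named where at least 3 markers of a type were found and no unrelated type mixed in; a cluster of Gkn3, Fbln5 and Egfl8 cells stayed unnamed, and a further limit on mixed clusters was added after seeing the data. Raw counts were summed per class and library and tested with edgeR 4.0.16 (TMM, quasi-likelihood, Benjamini-Hochberg over all genes, threshold 0.05). This fit was tried on simulated counts of the endothelial-like Lama5 comparison only, which does not cover the smaller classes. With 1 knockout library, the Lama4-/- comparison used a pseudocount of 0.5 CPM, genes at 20 CPM or more and a 1.5-fold size rule. Intervals are exact at 95% and cover counting error only.

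Alternatives were DESeq2 1.42.0, unscaled totals, no filter on low counts, a replicate block, each library left out, a stricter cell filter (1000 genes, 10% mitochondrial), doublets kept, resolution 2 and a pseudocount of 2 CPM. The test of differences between classes was added after seeing the data. The genes and the pathway lists were chosen with earlier results of these data known. All 9 genes are named, and from each list up to 4 called genes with the largest change were eligible. Promoter windows are from RefSeq, and 3 of the 9 genes had none in the table used here. In these pools, fewer cells and less RNA per cell cannot be told apart for class totals.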

Additional observations from a re-analysis of the deposited data

Results flagged for a closer look

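In 15 gene and class pairs both Tek-Cre:Lama5-/- libraries lay on one side of both of their WT libraries and the Lama4-/- library lay on the other side of both of its own. The difference between the 2 knockouts was not tested, because the Lama4-/- group is 1 library. The share of all genes on opposite sides was not counted, so these pairs cannot be set against a background. Lying outside both WT libraries was common in the Lama4-/- comparison. In endothelial-like cells 27.8% of all genes at 20 CPM or more lay below both and 54.4% above. Against 25 pairs on the same side, of 54 in all, 6 of the 15 lay in endothelial-like cells. There the Lama5 log2 fold changes were 0.18 for Hsp90aa1, 0.0895 for Hsp90ab1, 0.24 for Dnajb1, 0.17 for Hspa8, 0.31 for Hspa5 and 0.23 for Hsph1, whereas the Lama4-/- library read lower than both of its WT libraries for these 6 genes. For Hspa5 that difference was inside counting error, at 343 CPM (95% interval 333 to 354) against 345 and 346 CPM, and within clusters 1 and 14 Hspa5 was lower in neither and Hsp90ab1 in 1 of 2. The knockout intervals of Hsp90ab1 and Dnajb1 also overlapped a WT interval. In pericyte-like cells the Lama5 log2 fold changes were 0.24 for Hsp90aa1, 0.24 for Hsp90ab1 and 0.70 for Hsph1, against lower values in the Lama4-/- library. For each of these genes the Lama4-/- interval overlapped a WT interval. Hsp90aa1 read 767 CPM (95% interval 705 to 834) against 807 and 919 CPM in WT. Hsp90ab1 read 1561 CPM (1472 to 1654) against 1731 and 1639 CPM, and Hsph1 103.8 CPM (81.8 to 129.9) against 106.4 and 117.0 CPM. Microglia-like cells stood at -1.20 for Hspa1b, 0.54 for Hspb1 and 0.23 for Hspa8. The Lama4-/- interval of Hspb1 in these cells overlapped a WT interval, and its Lama5 difference was not called (adjusted p = 0.0787 by edgeR). For Hspa1b the scaled log2 ratio of the Lama4-/- library was 0.0039. Astrocyte-like cells stood at 0.91 for Hspa1a and 0.95 for Hspa1b, and perivascular macrophage-like cells at 0.18 for Hspa5. That Hspa5 difference was not called (adjusted p = 0.535 by edgeR). The Lama4-/- library there read 1250 CPM (95% interval 1158 to 1346), against 1371 and 1284 CPM in WT.

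A direct edgeR test of whether the Lama5 knockout effect differed from that in endothelial-like cells passed in 12 of 45 pairs, given here as the log2 difference. Hspa1a differed by 1.12 in astrocyte-like, -0.60 in microglia-like and -0.50 in smooth muscle-like cells. Hspa1b differed by 1.47 in astrocyte-like, -0.65 in microglia-like, 0.36 in pericyte-like and -0.38 in smooth muscle-like cells. Hsp90ab1 differed by 0.21 in microglia-like cells. In smooth muscle-like cells Hspb1 differed by -0.16, Hsph1 by -0.48, Hspa8 by -0.18 and Hsp90aa1 by -0.16.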

How the results depend on the processing

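Of the called pairs of the Lama5 knockout, 12 of 27 passed under every alternative tried, and of those between the WT groups 37 of 42 did. Counts of called genes in the Lama5 knockout moved most in the small classes. In astrocyte-like cells, with 3 called, DESeq2, the fit with no filter on low counts and the stricter cell filter each called 0, keeping doublets called 1, and leaving out a library gave 1 to 3. In pericyte-like cells, with 4 called, DESeq2 called 0, the stricter cell filter 2, and leaving out a library gave 2 to 4. In perivascular macrophage-like cells, with 2 called, DESeq2 called 1, no filter called 0, and leaving out a library gave 1 to 2. In smooth muscle-like cells, with 4 called, no filter called 2, and leaving out a library gave 0 to 4. Leaving out a library left 8 called in endothelial-like and 5 to 6 in microglia-like cells. In the Lama4-/- comparison the genes past 1.5-fold in endothelial-like cells went from 2 to 1 on unscaled totals and to 1 with the stricter cell filter. Leaving out a WT library gave 1 to 4 in astrocyte-like, 0 to 1 in pericyte-like and 4 to 5 in perivascular macrophage-like cells. Between the WT groups, unscaled totals turned the sign of Hspa8 in endothelial-like cells to -0.0014 and in microglia-like cells to 0.042. The median of the 9 genes shifted on unscaled totals by -0.10 in endothelial-like and 0.18 in microglia-like cells there, so smaller log2 differences depend on the scaling. Hspb1 in astrocyte-like cells was called between the WT groups without the second WT library of the Lama4 experiment (-0.98, adjusted p = 2.76e-05 by edgeR).

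Libraries with the same number in the groups compared are not stated to be pairs. Their deviations correlated over genes at -0.047 to 0.085, which cannot show whether they were processed together. A fit with the replicate block called Hspa1b (-0.18, adjusted p = 0.00445) and Hspb1 (-0.20, adjusted p = 0.00444) in pericyte-like cells of the Lama5 knockout, and Hspb1 in astrocyte-like cells between the WT groups (-0.54, adjusted p = 0.0229), and changed no other call of the 9 genes. Depth limits the perivascular macrophage-like and pericyte-like classes most. Hspb1 was seen in 0 of 46 and 0 of 43 perivascular macrophage-like cells of the 2 WT libraries of the Lama5 experiment at 2000 UMIs per cell, which allows a share of up to 6.52% and 6.98% of cells with a UMI, counting error only.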
